A study of Arabidopsis thaliana with 24 samples.

Results

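AT2G29500, AT1G54050 and AT2G19310 encode small heat shock proteins of Arabidopsis thaliana, and Fes1A encodes a partner of the heat shock protein HSP70. These 4 genes were followed by 1 probe set each (266294_at, 263150_at, 267336_at and 259037_at) among the 22746 probe sets of the ATH1 array, and all 4 lie among the 57.1% of probe sets kept for the comparisons. They were chosen for their total RNA signals and because pre-existing RNA that gains signal gives no half-life. Total RNA, pre-existing RNA against time 0 and the comparison of the fractions are therefore described for them with no test. The samples were whole seedlings of ecotype Columbia, grown and kept at 27°C or 17°C in 12 hour light and 12 hour dark cycles and floated on MS medium for 12 hours before the start. Seedlings were already at their temperature when time 0 was taken. Soon after lights on the seedlings received 4-thiouracil (4SU), a uracil analog that marks transcripts made from then on, for 1 hour at 27°C or for 2 hours at 17°C. At the end of this labeling the RNA was hybridized whole (total), and a streptavidin column divided another portion into transcripts with 4SU, called newly synthesized (NS), and those without it, called pre-existing (PE). Total RNA at time 0 came from seedlings without 4SU. Each of these 8 groups had 3 biological replicates, which gave 24 arrays. Labeling time differed with temperature, so the effects of both cannot be told apart. Seedlings of the end had received 4SU and more time in the light than those of time 0. Effects of 4SU, light and time of day therefore cannot be told apart between end and time 0. The sample labels give 1.5 mM 4SU at both temperatures and an age of 10 days, while the study's methods state different concentrations and 11 days. In whole seedlings, fewer cells of a type and less RNA per cell cannot be told apart.

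Small heat shock proteins are chaperones that bind unfolding proteins without using ATP and hold them until HSP70 and other chaperones refold them. Plants have many, sorted into classes by sequence and by the compartment in which they work. Their genes are largely silent in unstressed vegetative tissue and are switched on by heat shock transcription factors. AT2G29500 (HSP17.6B) belongs to the cytosolic class I and AT1G54050 (HSP17.4B) to class III, while AT2G19310 is a further protein of the family. Fes1A is named after a yeast exchange factor that helps HSP70 release its nucleotide, and in Arabidopsis it protects HSP70 from degradation and is needed for acquired heat tolerance. Genes of one class of small heat shock proteins resemble each other in sequence, and whether their probes read each other's transcripts was not tested.

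Signals are MAS5 intensities on a linear scale, and every array carried the same trimmed mean of 500. The amount of RNA in a fraction therefore cannot be read from its array. Log2 signals of replicates had a Pearson's r of 0.959 to 0.987 over the kept probe sets. Of 6 leaf markers 1 was named and of 6 root markers 2. RCA, the activase of the carbon-fixing enzyme Rubisco, gave 15445 to 24117 on the total RNA arrays, and the root genes PYK10 and EXPA7 gave 9787 to 16388 and 129 to 221. Both organs were thus represented. Each of the 4 genes had its highest signal at the end at 27°C in replicate 3, in total, NS and PE RNA alike, that is in 12 of 12 comparisons of 3 arrays. Total, NS and PE of one number share their RNA, so these comparisons are not independent. The share of all probe sets highest in that replicate was not computed. At the end at 17°C the highest signal lay in replicate 1 in 7 and in replicate 3 in 5 of 12. Whether replicate 3 differed from the others at 27°C was not tested.

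The class I gene AT2G29500 was far brighter at the end of labeling at 27°C than in any group at 17°C. Total RNA gave 1428, 1547 and 2887 at the end at 27°C (replicates 1 to 3), against 191, 112 and 194 at the end at 17°C. At time 0 it gave 121, 79.9 and 117 at 27°C, against 85.7, 71.8 and 66.8 at 17°C. The groups were apart at the end and overlapped at time 0. NS RNA gave 1493, 2312 and 3808 at 27°C, against 201, 145 and 206 at 17°C. PE RNA gave 1008, 1024 and 1689 at 27°C, against 156, 153 and 176 at 17°C. Ordered by group mean, the 3 groups from the end at 27°C came first, NS with 2538 ± 1174, total with 1954 ± 810 and PE with 1240 ± 388 (SD, n = 3), and each overlapped the next. A gap followed, and then NS (184 ± 33.9), total (166 ± 46.4) and PE (162 ± 12.5) at 17°C, which overlapped too. Time 0 at 27°C (106 ± 22.6) and at 17°C (74.8 ± 9.75) came last, and the first of these overlapped total RNA at the end at 17°C.

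AT1G54050, of class III, had the widest ratio of highest to lowest signal of the 4 genes. Total RNA gave 2924, 2937 and 4593 at the end at 27°C, against 214, 188 and 144 at the end at 17°C. At time 0 it gave 153, 76.3 and 135 at 27°C, against 111, 151 and 66.3 at 17°C. Before 4SU the temperatures overlapped, and afterwards all arrays at 27°C lay above all arrays at 17°C. NS RNA gave 4598, 5529 and 7639 at 27°C, against 623, 359 and 260 at 17°C. PE RNA gave 1949, 2441 and 3106 at 27°C, against 159, 162 and 176 at 17°C. NS at 27°C (5922 ± 1558) narrowly cleared total RNA at the end at 27°C (3485 ± 960), which overlapped PE (2499 ± 580). NS at 17°C (414 ± 187) followed alone, and total (182 ± 35.6) and PE (166 ± 8.71) at 17°C overlapped. Both time 0 groups had lower means, 121 ± 40.2 at 27°C and 109 ± 42.3 at 17°C, and their highest arrays overlapped those of total RNA at the end at 17°C.

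AT2G19310 was the only one of the 4 genes with a large difference between temperatures before 4SU was added. Total RNA at time 0 gave 2513, 1984 and 2173 at 27°C, against 302, 370 and 269 at 17°C. At the end it gave 4815, 5022 and 5938 at 27°C, against 699, 477 and 511 at 17°C. Even the lowest time 0 array at 27°C was thus above every array at 17°C, those of the end and of NS RNA included. NS RNA gave 7426, 8874 and 10353 at 27°C, against 1130, 614 and 770 at 17°C. PE RNA gave 4555, 3446 and 5414 at 27°C, against 479, 419 and 435 at 17°C. In the order of means, NS at 27°C (8884 ± 1464) stood apart, total (5258 ± 597) and PE (4472 ± 986) at 27°C overlapped, and time 0 at 27°C (2223 ± 268) stood apart. NS (838 ± 265), total (562 ± 119) and PE (444 ± 31.2) at 17°C overlapped their neighbors, and time 0 at 17°C (314 ± 51.5) was lowest.

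Fes1A, the co-chaperone, was grouped by time and fraction more than by temperature. Total RNA gave 1968, 1981 and 2712 at the end at 27°C, against 1384, 1182 and 1192 at the end at 17°C. At time 0 it gave 319, 316 and 373 at 27°C, against 272, 230 and 283 at 17°C. All 3 arrays at 27°C were above all 3 at 17°C at both times, with a narrow gap at time 0. NS RNA gave 3821, 4447 and 5162 at 27°C, against 3000, 2380 and 2560 at 17°C. PE RNA gave 1401, 1171 and 1920 at 27°C, against 788, 900 and 1037 at 17°C. NS at 17°C (2646 ± 319) thereby ranked above total RNA at 27°C (2221 ± 426), whose arrays it overlapped. For the other 3 genes every group at 17°C ranked below all 3 end groups at 27°C.

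**Figure D1:**
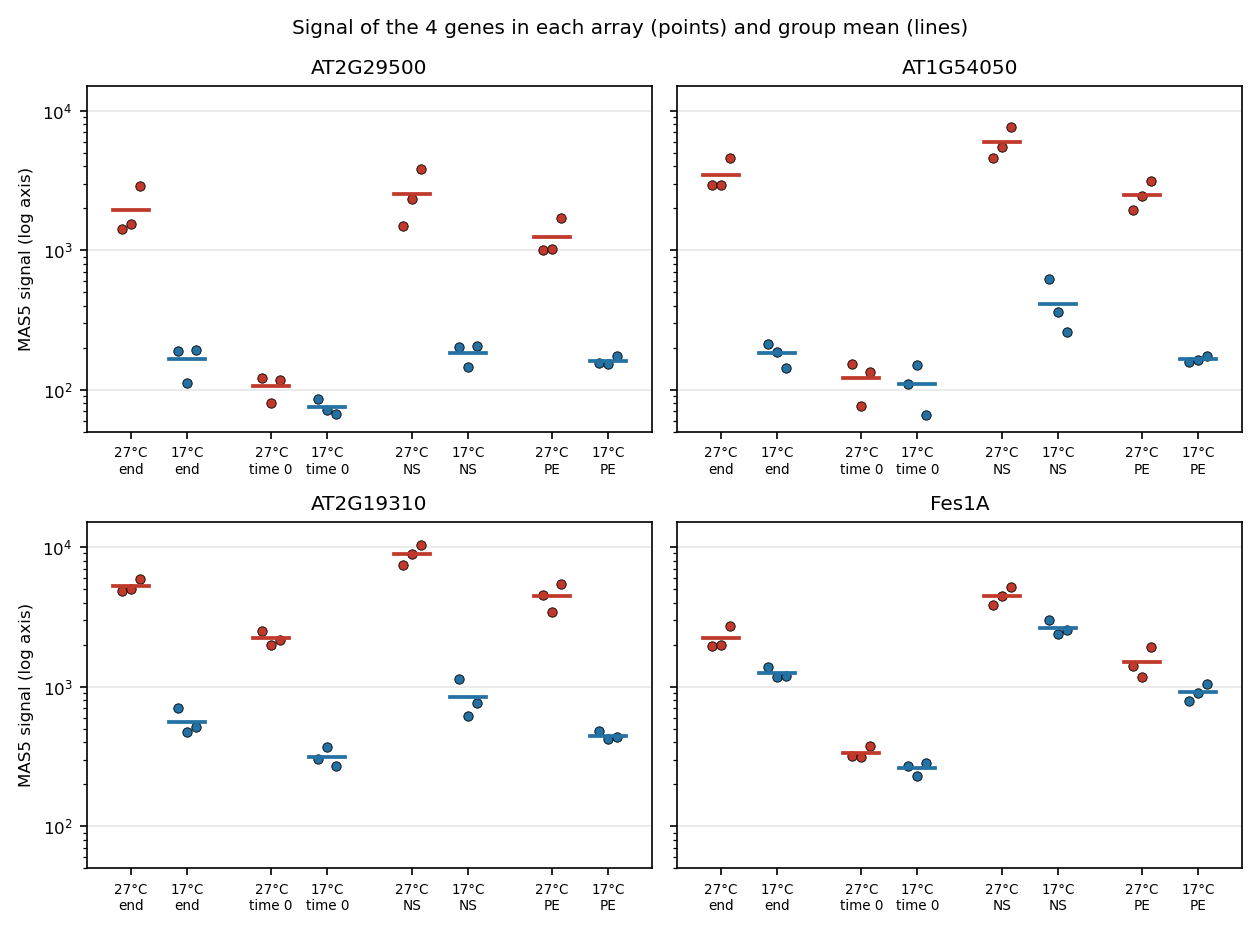
MAS5 signal (log axis) of the 4 genes on all 24 arrays, in red at 27°C and in blue at 17°C, for total RNA at the end and at time 0, and for the NS and PE fractions; points are replicates 1 to 3 from left to right and lines are means. AT2G29500 and AT1G54050 lie between 66.3 and 153 in both time 0 groups. AT2G19310 and Fes1A are apart by temperature in every pair, AT2G19310 more widely. All 4 genes have their highest mean at each temperature in NS RNA.

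At the end of labeling, total RNA was 19.0-fold higher at 27°C than at 17°C for AT1G54050 (log2 4.24 ± 0.27, SE), 11.5-fold for AT2G29500 (3.53 ± 0.41) and 9.45-fold for AT2G19310 (3.24 ± 0.19). They ranked 2, 6 and 10 among the kept probe sets, while Fes1A, 1.76-fold higher (0.81 ± 0.17), ranked 465. The arrays of the temperatures did not overlap for any of the 4, which held for 19.2% of all kept probe sets in the same direction. This ranking was known when the genes were chosen and is no result. At time 0 AT2G19310 was 7.12-fold higher at 27°C (2.83 ± 0.17, rank 15), Fes1A 1.29-fold (0.36 ± 0.12), AT2G29500 1.40-fold (0.49 ± 0.22) and AT1G54050 1.12-fold (0.17 ± 0.46). The arrays of AT2G29500 and AT1G54050 overlapped there, and 25% of the kept probe sets were higher at 27°C in all arrays. Without single arrays the log2 difference of AT1G54050 at time 0 ran from -0.15 to 0.47, so it had no settled sign.

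Over the labeling time at 27°C, total RNA was 29.3-fold higher at the end than at time 0 for AT1G54050, the highest ratio of all kept probe sets, and 17.79-fold higher for AT2G29500, the fourth highest. Fes1A was 6.55-fold higher (rank 27) and AT2G19310 2.37-fold (rank 368). These ranks leave out probe sets that the filter dropped for low signal, such as the heat shock gene ROF2, 29.7-fold higher in a fit without the filter. The genes were chosen with total RNA known, so their ranks are no result. At 17°C, over 2 hours, the ratios were 4.80 for Fes1A (rank 49), 2.16 for AT2G29500 (rank 309), 1.78 for AT2G19310 (rank 573) and 1.74 for AT1G54050 (rank 629). The arrays of end and time 0 were apart for all 4 genes at 27°C and for 3 at 17°C, where those of AT1G54050 overlapped. Among all kept probe sets, 23.7% and 16.3% were higher at the end without overlap. Ratios of AT2G29500 and AT1G54050 rest on time 0 signals at percentiles 39.1 to 50.5 of an array's probe sets at 27°C. With 32 units added to each signal they were 13.8 and 23.0 at 27°C, and Fes1A and AT2G19310 then had 6.07 and 2.35.

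Newly synthesized RNA separated the temperatures by 14.9-fold for AT1G54050, 13.0-fold for AT2G29500, 10.9-fold for AT2G19310 and 1.69-fold for Fes1A (27°C over 17°C). Pre-existing RNA did so by 14.8-fold, 7.45-fold, 9.91-fold and 1.62-fold in the same order of genes. No NS arrays overlapped between temperatures for any of the 4, against 21.1% of the kept probe sets in that direction. Both fractions were split from the RNA of the end, so these ratios are not independent of the total. Scaled to the total by the factor Cn and divided by the hours of labeling, new signal per hour was 553 ± 256 at 27°C and 12.4 ± 2.27 at 17°C for AT2G29500 (SD, n = 3). For AT1G54050 it was 1291 ± 340 at 27°C and 27.8 ± 12.6 at 17°C, for AT2G19310 1937 ± 319 and 56.2 ± 17.7, and for Fes1A 976 ± 146 and 177 ± 21.4. The ratios of the means were 44.8, 46.5, 34.5 and 5.50, beside a median of 3.29 over the kept probe sets. That of Fes1A lay at percentile 94.5 and those of the 3 small heat shock protein genes above 99.9. New signal per hour was not corrected for decay during labeling, as the transcription rates of the study's methods are, so it is no synthesis rate.

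Within a temperature, NS was set against PE. Both fractions came from the RNA of the total at the end, and PE values entered the choice of the genes. The differences between NS and PE are therefore a description with no test. Their intervals are from limma, fitted without pairing NS and PE of one number. At 27°C NS exceeded PE for Fes1A by 1.60 on the log2 scale (95% interval 1.18 to 2.02), for AT1G54050 by 1.24 (0.63 to 1.85), for AT2G19310 by 1.00 (0.52 to 1.49) and for AT2G29500 by 0.97 (0.34 to 1.61). Between NS and PE of one number, which were split from one RNA, AT2G29500 differed by 0.57, 1.17 and 1.17 at 27°C, AT1G54050 by 1.24, 1.18 and 1.299, AT2G19310 by 0.71, 1.36 and 0.94, and Fes1A by 1.45, 1.93 and 1.43. NS was thus the higher in all 3 pairs for each gene, as it was for 53.1% of the kept probe sets. At 17°C NS exceeded PE for Fes1A by 1.54 (1.13 to 1.96), for AT1G54050 by 1.23 (0.62 to 1.84), for AT2G19310 by 0.87 (0.39 to 1.36) and for AT2G29500 by 0.17 (-0.46 to 0.81). The pairs differed there by 1.93, 1.40 and 1.303 for Fes1A, by 1.97, 1.15 and 0.57 for AT1G54050, and by 1.24, 0.55 and 0.83 for AT2G19310. AT2G29500 had 0.36, -0.073 and 0.23 and so no common sign at 17°C, where NS was higher in all 3 pairs for 51.4% of the kept probe sets. All 3 NS arrays lay above all 3 PE arrays for AT1G54050, AT2G19310 and Fes1A at both temperatures and for AT2G29500 at neither, and this held for 47.8% of the kept probe sets at 27°C and 45.4% at 17°C.

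Because NS arrays are brighter than PE arrays over most probe sets, each value has to be read against the median of all, 0.37 at 27°C and 0.29 at 17°C on the log2 scale. Above that median, Fes1A lay by 1.23 and 1.25, AT1G54050 by 0.87 and 0.93, and AT2G19310 by 0.63 and 0.58, at 27°C and 17°C. AT2G29500 lay 0.60 above it at 27°C and had -0.12 at 17°C. When arrays were centered on their medians, NS minus PE at 27°C was 1.19 for Fes1A, 0.83 for AT1G54050, 0.59 for AT2G19310 and 0.56 for AT2G29500. Without NS replicate 3 of 27°C that of AT2G29500 was 0.63.

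The difference in NS over PE between temperatures (27°C minus 17°C, log2 scale) was 0.13 for AT2G19310 (95% interval -0.55 to 0.82), 0.06 for Fes1A (-0.54 to 0.65) and 0.01 for AT1G54050 (-0.85 to 0.87). It was 0.80 for AT2G29500 (-0.10 to 1.69). All 4 intervals hold values on both sides of 0, but the fit behind them leaves out the pairing of NS and PE. Intervals with the pairing are not given. The pairs of AT2G29500 differed by 0.57, 1.17 and 1.17 at 27°C and by 0.36, -0.073 and 0.23 at 17°C, without overlap. Over all kept probe sets, limma tested the difference between temperatures (calls at Benjamini-Hochberg adjusted p under 0.01 and a fold above 1.5). It called 0.0308% higher and 0.0462% lower at 27°C, 10 in all, and 3 with NS and PE of one number paired.

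**Figure D2:**
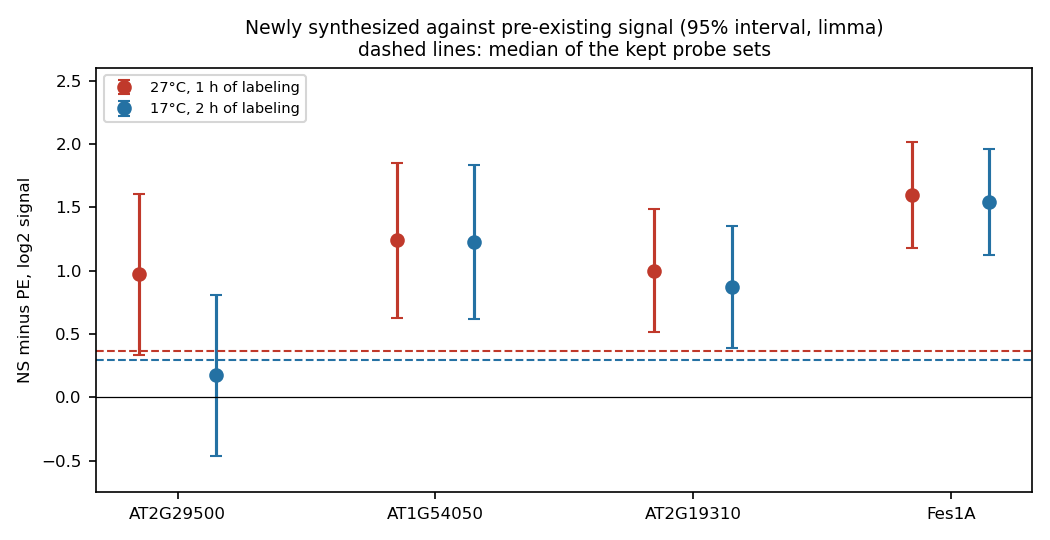
NS minus PE signal on the log2 scale for the 4 genes, in red at 27°C after 1 hour and in blue at 17°C after 2 hours of labeling. The 95% intervals are from limma without pairing (n = 3 arrays a group). Dashed lines mark the medians of the kept probe sets, 0.37 and 0.29. All intervals lie above 0 except that of AT2G29500 at 17°C, -0.46 to 0.81.

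NS was scaled by Cn (0.218 at 27°C, 0.134 at 17°C) and PE by Cp (0.770 and 0.848). Scaled NS then made up 46.2 ± 4.86% of the sum for Fes1A at 27°C and 31.7 ± 5.13% at 17°C (SD, n = 3). AT1G54050 had 40.1 ± 0.99% at 27°C and 27.7 ± 9.72% at 17°C, and AT2G19310 had 36.3 ± 5.39% and 22.6 ± 4.22%. AT2G29500 had 35.8 ± 5.45% and 15.2 ± 1.95%. The median of all kept probe sets was 26.9% at 27°C and 16.4% at 17°C, so that AT2G29500 at 17°C lay at percentile 45.9 and Fes1A at percentiles 92.6 and 91.4. In single replicates AT2G29500 had 29.5, 39.0 and 39.0% at 27°C and 16.9, 13.1 and 15.6% at 17°C. The replicates of AT1G54050 at 17°C were far apart, with 38.2, 25.9 and 19.0%. The scaled sum matched the total for most genes, with a median ratio of 0.992 at 27°C, while AT2G29500 reached 0.782 ± 0.050 there (percentile 3.99) and the other 3 lay between 0.930 and 1.02. All shares given here are of labeled RNA. At 27°C scaled PE of each of these genes lay above its total signal at time 0, as given below. Where this excess of PE came from was not tested, so the shares are not given as shares of all RNA made after time 0.

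A transcript that only decays in the unlabeled pool would have less PE signal at the end than total signal at time 0, and the half-life formula of the methods works only in that case. For all 4 genes at 27°C the 3 scaled PE signals were above all 3 time 0 signals. With the time 0 array of the same number, for which no common origin is established, the ratio was 9.78, 24.6 and 17.78 for AT1G54050 and 6.44, 9.86 and 11.1 for AT2G29500. It was 3.38, 2.85 and 3.96 for Fes1A and 1.40, 1.34 and 1.92 for AT2G19310. Over all 9 combinations of a PE and a time 0 array, AT1G54050 had 9.78 to 31.3, AT2G29500 6.44 to 16.3, Fes1A 2.42 to 4.68 and AT2G19310 1.06 to 2.10. Ratios of the group means were 15.8, 9.01, 3.43 and 1.55 in the same order of genes, and AT1G54050 ranked 1 and AT2G29500 ranked 3 among the kept probe sets, whose median was 0.706. All scaled PE signals lay above all time 0 signals in 7.12% of them, above 2 times these in 0.362% and above 5 times in 0.0616%, which is 8 probe sets with AT1G54050 and AT2G29500 included. The genes were chosen as ones without a half-life, so these shares only place them.

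At 17°C the ratio of means was 2.95 for Fes1A (rank 57), 1.83 for AT2G29500 (rank 190), 1.29 for AT1G54050 (rank 795) and 1.20 for AT2G19310 (rank 1057), beside a median of 0.807. All scaled PE signals lay above all time 0 signals for Fes1A and AT2G29500, as in 6.21% of the kept probe sets, and they overlapped for AT1G54050 and AT2G19310. The 9 combinations gave 2.36 to 3.83 for Fes1A, 1.51 to 2.23 for AT2G29500, 0.895 to 2.25 for AT1G54050 and 0.961 to 1.51 for AT2G19310. The range of Fes1A thus overlapped that of 27°C, and so did that of AT2G19310, while those of AT2G29500 and AT1G54050 were apart between temperatures.

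**Figure D3:**
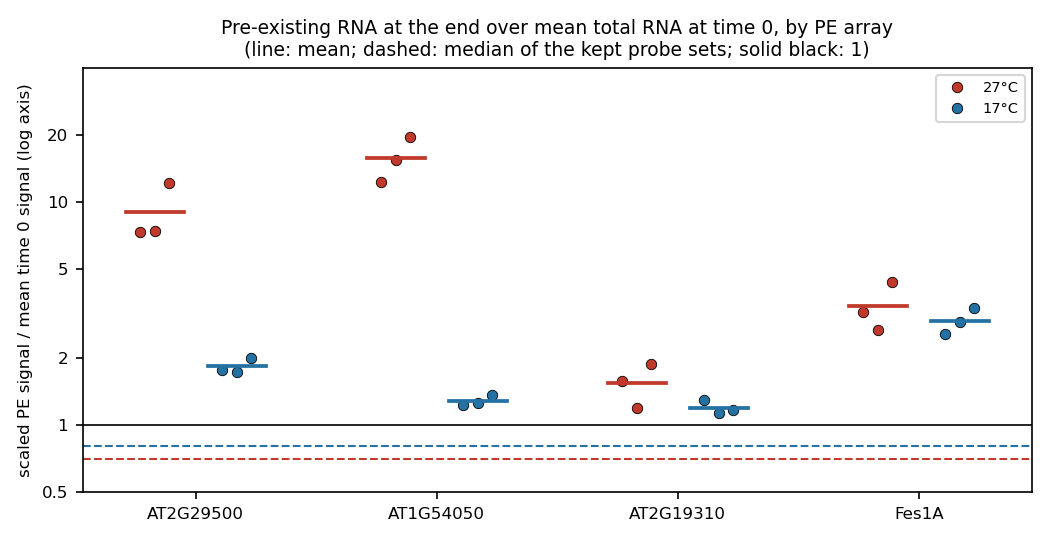
Scaled pre-existing signal of each PE array over the mean total signal at time 0 (log axis), in red at 27°C and in blue at 17°C, with ratios of means as lines. At 27°C the points lie between 1.19 for AT2G19310 and 19.7 for AT1G54050, while the medians of the kept probe sets (dashed) are 0.706 and 0.807.

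The difference in total signal between end and time 0 can be set against the scaled new signal, which would cover it fully if every added transcript carried label. With the mean of time 0 taken from each array of the end, new signal at 27°C came to 24.6, 35.0 and 29.9% of that difference for AT2G29500 and to 35.8, 42.8 and 37.3% for AT1G54050 (replicates 1 to 3). It came to 51.0, 59.0 and 47.4% for Fes1A and to 62.5, 69.1 and 60.8% for AT2G19310. From group means it was 29.9, 38.4, 51.8 and 63.8% in this order. Among the 1460 probe sets called higher at the end at 27°C, the median was 59.7% and the quartiles were 47.3 and 77.5%, and AT2G29500 and AT1G54050 lay at percentiles 2.26 and 9.04. The 83 of them that were at least 4-fold higher had a median of 43.0% (36.7 to 52.4%). Scaled PE in excess of time 0 made up 45.9% of the difference for AT2G29500, 53.6% for AT1G54050, 43.3% for Fes1A and 40.2% for AT2G19310. For AT2G29500 scaled NS and PE together reached only 0.782 of the total at 27°C, so both parts leave some of its difference uncovered. At 17°C new signal was 35.8, 34.7 and 36.9% for Fes1A, 39.3, 50.4 and 52.4% for AT2G19310 and 23.3, 52.1 and 23.1% for AT2G29500. From group means these were 35.8, 45.2 and 27.2%, beside a median of 42.4% over 753 probe sets called higher at the end.

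**Figure D4:**
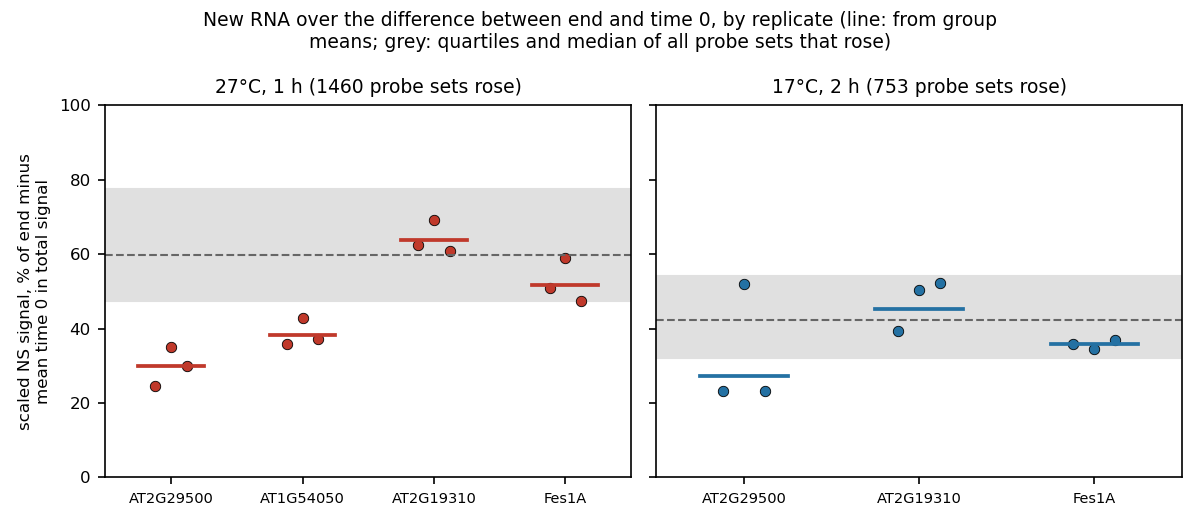
Scaled NS signal as a percentage of end minus mean time 0 in total signal, by replicate (points) and from group means (lines), at 27°C and 17°C; the grey band and dashed line are the quartiles and median of all probe sets called higher at the end. At 27°C the 3 points of AT2G29500 and of AT1G54050 lie below the band, which starts at 47.3%; AT1G54050 is not shown at 17°C, where its end and time 0 arrays overlapped.

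Of 85 heat shock loci in 6 lists (small heat shock proteins, HSP70, HSP90 and HSP100 chaperones, co-chaperones, heat shock factors and their targets), 22 had a probe set named with that gene alone, 4 of them the genes described here. Of the other 18, 8 were among the kept probe sets. None was a heat shock factor. At the end, 5 of these 8 were higher at 27°C and none lower (median log2 0.89, against -0.01 over all kept probe sets, of which 4.97% were called higher and 5.85% lower). HSA32, a heat-induced protein of long-lasting heat tolerance, was 5.44-fold higher (adjusted p = 7.3e-06), with 965, 639 and 834 at 27°C against 135, 137 and 173 at 17°C. The small heat shock protein gene HSP15.4 (AT4G21870) was 2.02-fold higher (adjusted p = 0.00031). HSP21.7 (AT5G54660), Hop2, an adaptor between HSP70 and HSP90, and HSP70-3 (AT3G09440) were 1.85 to 1.92-fold higher, the calls of HSP21.7 (adjusted p = 0.0063) and Hop2 (0.0068) being lost in several alternatives. Like AT2G19310, HSA32 was already higher at time 0, by 2.75-fold (adjusted p = 0.00020), one of 3 of the 8 called higher there, beside 10.7% of all.

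Between time 0 and the end at 27°C, 4 of the 8 rose and 3 fell, beside 11.2% and 14.5% of all kept probe sets. HSP70-3 rose 4.52-fold, Hop2 2.25-fold, HSA32 2.00-fold and Hop1 1.63-fold. Fes1B and Fes1C, the relatives of Fes1A, fell by 0.92 and by 1.15 on the log2 scale at 27°C (adjusted p = 0.0048 and 2.2e-05), where Fes1A was 2.71 higher on that scale. HSP15.4 fell by 0.69 at 27°C and by 1.28 at 17°C. At 17°C HSP70-3 alone of the 8 rose, by 6.99-fold, and HSP15.4 alone fell, beside 5.79% and 6.53% of the kept probe sets. NS exceeded PE for 5 of the 8 at 27°C and for 3 at 17°C, with HSP70-3, HSA32 and Hop2 in both, beside 37.6% and 35.6% of the kept probe sets.

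The filter on low values dropped 10 named heat shock genes because their signal was low on some total RNA array. Among them were genes low at 17°C, such as HSP17.6C, and genes low at both temperatures, such as CLPB2. HSC70-2 (AT5G02490) was low on 1 array only, with 77.8, 92.4 and 18.3 at time 0 at 17°C. In a fit without the filter, over 22746 probe sets, from which genes were named after their values were seen, 8 of the 18 others were higher at 27°C at the end and none lower, where 1.41% of all probe sets were called higher and 1.57% lower. Hop3 was 26.9-fold higher (adjusted p = 0.00018), with 2055, 2027 and 2848 at 27°C, against 115, 62.9 and 84.0 at 17°C. ROF2 (AT5G48570), a peptidyl-prolyl isomerase that binds HSP90, was 24.2-fold higher and the peroxisomal HSP15.7 (AT5G37670) 18.0-fold (adjusted p = 0.00024 each). AT2G20560, of the co-chaperone list, was 15.8-fold higher (adjusted p = 0.0037). At time 0, 7 of the 18 were already called higher at 27°C and 0 lower, beside 866 higher and 1051 lower of all 22746 probe sets. Hop3, ROF2, HSP15.7, HSP23.5 and AT2G20560 were among the 7. Hop3 gave 430, 263 and 355 at time 0 at 27°C, against 29.2, 55.1 and 27.3 at 17°C. HSP17.6C (AT1G53540), of the same class as AT2G29500, gave 1107, 1466 and 2473 at the end at 27°C, against 35.1, 40.9 and 74.5 at 17°C, and was not called (adjusted p = 0.010, just above the limit). Its time 0 arrays at 17°C gave 39.1, 71.0 and 3.8. Its arrays at the end did not overlap between temperatures, like those of AT2G29500. HSP23.5 (AT5G51440), a mitochondrial small heat shock protein, was 8.75-fold higher at 27°C at the end (adjusted p = 0.00077), and it rose 15.3-fold at 27°C between time 0 and the end. At 17°C it gave 376, 307 and 255 at the end, against 57.3, 29.5 and 29.1 at time 0. ROF2 rose 29.7-fold at 27°C between time 0 and the end (adjusted p = 8.4e-05), where 4.58% of all probe sets rose. At 17°C, where 1.77% rose, it gave 211, 174 and 330 at the end, against 61.6, 35.4 and 29.9 at time 0 (adjusted p = 0.0025). These time 0 signals of HSP23.5 and ROF2 lie mostly under the lowest kept minimum of 48.25, so no fold is given for 17°C.

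**Figure D5:**
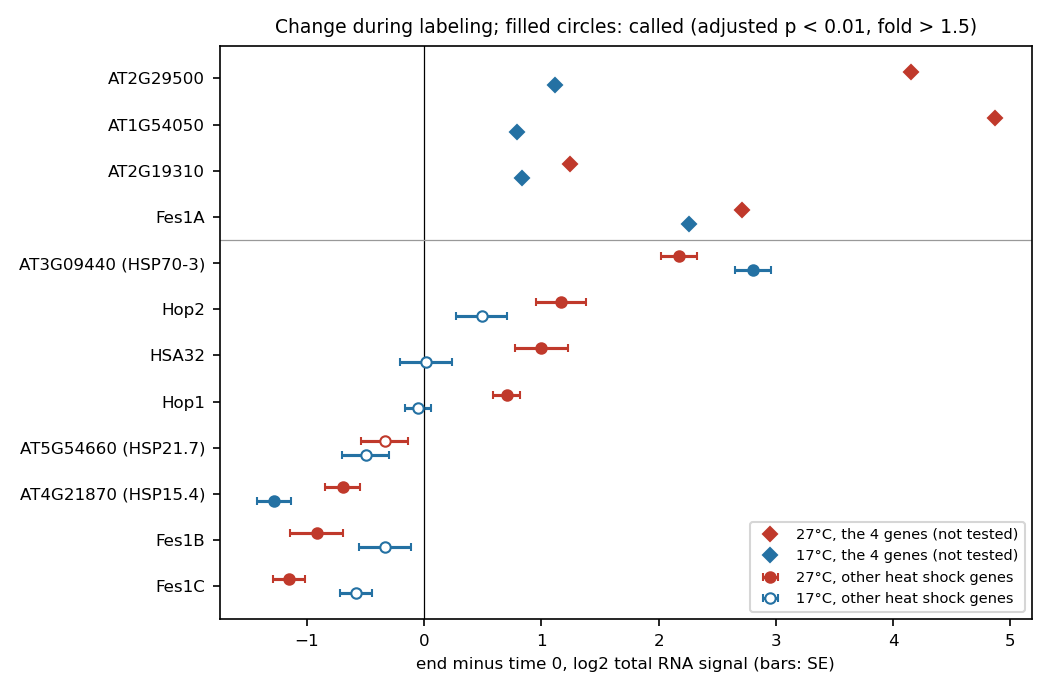
Change in total signal between time 0 and the end (log2) of the 4 genes (diamonds, not tested) and of the 8 other heat shock genes with a named and kept probe set (circles with SE, filled where called), in red at 27°C and in blue at 17°C. AT1G54050 and AT2G29500 reach 4.87 and 4.15 at 27°C but 0.79 and 1.11 at 17°C, while Fes1A and HSP70-3 are above 2 at both temperatures.

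Over all 24 arrays, log2 signals of AT2G29500 and AT1G54050 followed each other with a Pearson's r of 0.977. AT2G19310 had 0.875 and 0.871 with them and Fes1A 0.767 and 0.786, and AT2G19310 and Fes1A had 0.573, the lowest of the 6 pairs. The arrays of the end share their RNA in groups of total, NS and PE, so these values describe the 24 arrays and carry no p. Likeness was sought among 6952 kept and named probe sets, so genes that the filter dropped, such as HSP17.6C and ROF2, were not compared. Of these 6952, AT1G30070 was most like both AT2G29500 (0.980) and AT1G54050 (0.9747). It was 4.19-fold higher at 27°C at the end and 8.30-fold higher at the end than at time 0 at 27°C. Cpn60beta2, a subunit of the chaperonin of plastids, was among the 3 nearest to both (0.959 and 0.971). ARD4, an acireductone dioxygenase of methionine salvage (0.964), and AT1G65490 (0.954) were the others nearest to AT2G29500 and to AT1G54050. AT2G19310 was followed by AT1G62510 (0.985), AT5G25450 (0.981) and HSA32 (0.967). Fes1A was followed by AT3G48460 (0.969), AT3G21670 (0.964) and AT5G38980 (0.962), and AT3G48460 was, like Fes1A, higher at the end than at time 0 at both temperatures, by 7.98-fold at 27°C and 10.8-fold at 17°C. By the mean r with all 4 genes, Cpn60beta2 and AT1G30070 came first (0.906 each), before AT3G07090 (0.891), AT1G65490 (0.884) and ARD4 (0.883).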

How the data were processed

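The deposited values are signal intensities per probe set, computed by the authors with MAS5 on a linear scale (version not given in the sources used here) and scaled to a trimmed mean of 500 per array. Sample groups came from the labels. From 22810 probe sets 64 controls were left out. Those with the highest minimum over the 12 total RNA arrays (at least 48.25, 57.1% of them) were kept in place of genes called present by the authors, since detection calls were not used here. The platform annotation names 1 gene for 13513 probe sets, several for 503 and none for 8730. Log2 signals were fitted with limma 3.58.1 in R 4.3.3, total arrays and fraction arrays separately with 4 groups each. A call needed a Benjamini-Hochberg adjusted p under 0.01 over all kept probe sets and a fold above 1.5. Fold changes are ratios of geometric means. Cn and Cp came from the regression of PE/T on NS/T described in the methods, with ratios averaged over replicates. Ratios of PE to time 0 used the array of the same number, and also group means and all combinations of arrays, since no common origin of these numbers is established.

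The genes, the lists and the tests were chosen with earlier results of these data known. Besides the 4 genes, every heat shock list gene with a single-gene probe set could be named, called ones first. So could the 3 kept probe sets of highest Pearson's r for each of the 4 genes, plus the 5 of highest mean r. The NS and PE arrays of one number come from RNA that was split, and their deviations from group means correlated at 0.15 to 0.21 at 27°C and 0.23 to 0.33 at 17°C, against at most 0.04 for other numbers. The fit without this pairing is given. NS against PE of the 4 genes is a description, since PE values entered their choice. On simulated data with known changes in the kept probe sets, 98% of changes of log2 2 were recovered in total RNA at the end and 94% in NS against PE at 27°C. The number of arrays limits the precision. Alternatives were other scalings, filters, a pseudocount of 32, a variance trend, the replicate block and leaving out each array.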

Additional observations from a re-analysis of the deposited data

How the results depend on the processing

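The total RNA values of the 4 genes kept their direction in every alternative except AT1G54050 at time 0. Counts of probe sets called between temperatures at the end were 1406, but 677 with no filter on low values and 885 to 1508 without single arrays (lowest without total replicate 3 of the end at 27°C). At time 0 they were 2961, and 1917 with no filter. Between end and time 0 at 17°C they were 1602, but 736 with no filter and 1051 to 1673 without single arrays (lowest without time 0 replicate 1 of 17°C, and 1064 without replicate 3). For the difference of NS over PE between temperatures, 10 were called, but 0 with quantile normalization, 0 with no filter, 28 with a pseudocount of 32, 37 with a variance trend, 3 with the replicate block and 0 to 3 without single arrays. Scaling moved the median of NS minus PE from 0.37 at 27°C and 0.29 at 17°C to -0.04 and 0.03 with median centering and to 0.08 and 0.07 with quantile normalization. In NS against PE, 4891 were called higher and 2311 lower at 27°C, and 4621 and 2823 at 17°C. They became 2805 and 3712, and 3319 and 3646, with median centering, and 3197 and 2901, and 3524 and 3311, with quantile normalization. Between end and time 0, 1460 were higher and 1880 lower at 27°C, and 753 higher and 849 lower at 17°C. With median centering these counts were 1741 and 1553 at 27°C, then 896 and 660 at 17°C.

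For the 4 genes, NS minus PE moved by more than the SD within groups, as estimated by limma, with both other scalings only. With median centering it was 0.56 for AT2G29500, 0.83 for AT1G54050, 0.59 for AT2G19310 and 1.19 for Fes1A at 27°C, and 1.28 for Fes1A at 17°C. With quantile normalization it was 1.34 for AT2G19310 at 27°C, and -0.24 for AT2G29500 and 0.87 for AT1G54050 at 17°C. The difference between temperatures was then 1.31 for AT2G29500, 0.63 for AT1G54050 and 0.64 for AT2G19310. Without single arrays NS minus PE of AT2G29500 at 27°C ran from 0.63 to 1.302. Among the other heat shock genes, Hop1 had 0.012 between end and time 0 at 17°C with median centering, and HSA32 had 0.0407 for the difference of NS over PE with quantile normalization. Fes1C had -0.052 and -0.12 for NS minus PE at 17°C with median centering and quantile normalization. Without single arrays HSA32 ran from -0.11 to 0.20 between end and time 0 at 17°C and from -0.29 to 0.048 for the difference of NS over PE, Fes1C from -0.12 to 0.045 between temperatures at the end, and HSP21.7 (AT5G54660) from -0.32 to 0.16 for NS minus PE at 27°C. The causes were not tested.

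With Cn and Cp fitted for each replicate, shares of scaled NS at 27°C were 28.5% for AT2G29500, 32.06% for AT1G54050, 28.8% for AT2G19310 and 37.8% for Fes1A. At 17°C they were 11.4% for AT2G29500, 17.2% for AT2G19310 and 24.99% for Fes1A. For AT1G54050 at 27°C, signals of at least 100 gave 41.1%, and leaving out a replicate, with Cn and Cp fitted again, gave 36.2 to 39.0%. With the replicate block, that is with NS and PE of one number paired, the values of the 4 genes do not change. Their intervals can change, and paired intervals are not given. Same-numbered total arrays of end and time 0 correlated at 0.02 to 0.04 at 27°C and -0.01 to 0.16 at 17°C in their deviations. Other numbers gave -0.03 to -0.001 at 27°C and -0.13 to 0.07 at 17°C. Such weak correlations cannot decide whether those numbers mark pairs. Ratios of group means, added after seeing the data, differed from the ratios to same-numbered time 0 arrays by less than their spread. Signals near 100 at time 0 limit the ratios of AT2G29500 and AT1G54050.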
